A study of Mus musculus with 2 samples.

Results

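Fc receptors bind the constant part of antibodies, and 9 genes of this family were described in single cells of 2 mouse tissues. The set was chosen by symbol: the activating IgG receptors Fcgr1, Fcgr3 and Fcgr4, their signalling chain Fcer1g, the inhibitory IgG receptor Fcgr2b, the neonatal receptor Fcgrt, the Fc receptor-like gene Fcrls, the low-affinity IgE receptor Fcer2a and the IgM receptor Fcmr. Each of the 9 matched 1 of the 55416 gene rows of the files. There was 1 library per tissue, from gastrocnemius muscle and from lung, made from CD45+ cells taken with magnetic beads from animals labelled "TB mice" and given the genotype "CAC mouse model". Both libraries carry those labels, so there is no control library without the model, and the labels name neither a treatment nor a number of animals. The series' design text also mentions muscle RNA-seq of tumour-bearing mice given IgG, anti-PD-L1 or anti-CD8a, which was not analysed here.

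As background, an IgG-coated target crosslinks activating receptors, whose signal runs through tyrosine motifs (ITAMs) in the Fcer1g chain, while Fcgr2b carries an inhibitory motif (ITIM) in its own tail and dampens that signal in the same cell. Which of them a myeloid cell carries is known to shape how therapeutic antibodies act, because antibody-coated cells can be engulfed or killed through activating receptors. Fcgrt works inside the cell: it binds IgG in acidic endosomes together with B2m and returns it to the surface, which prolongs the life of IgG in blood, with endothelial cells and macrophages as main sites. Fcer2a and Fcmr are known from B cells, and Fcrls from resident macrophages and microglia.

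The signalling motifs described above are shown here as coding bases of GENCODE M21 transcripts (GRCm38), with the tyrosine codons in capitals. The Fcer1g motif spans codons 65 to 79 and the Fcgr2b motif codons 317 to 322. The ITAM pattern was found in Fcer1g alone among the 9, while the loose ITIM pattern also matched codons of Fcgr1, Fcgr4, Fcer1g and Fcgrt, and such a match is a description of letters only.
Fcer1g ITAM: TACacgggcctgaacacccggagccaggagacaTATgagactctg
Fcgr2b ITIM: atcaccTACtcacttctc
A second pair of sequences bears on how the counts can be read. Fcgr2b and Fcgr3 share 87.3% of 790 aligned coding bases and an unbroken run of 129 identical bases, whereas the other 5 pairs among the 4 IgG receptor genes share 64.5% to 68.6% with runs of 9 to 14 bases. The 169 bases around that run differ only at the 2 positions in capitals, at coding bases 258 to 426 of Fcgr2b and 243 to 411 of Fcgr3.
Fcgr2b: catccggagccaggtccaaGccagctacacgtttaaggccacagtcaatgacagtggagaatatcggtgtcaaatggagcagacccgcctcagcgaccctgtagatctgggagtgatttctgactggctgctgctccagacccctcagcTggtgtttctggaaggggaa
Fcgr3: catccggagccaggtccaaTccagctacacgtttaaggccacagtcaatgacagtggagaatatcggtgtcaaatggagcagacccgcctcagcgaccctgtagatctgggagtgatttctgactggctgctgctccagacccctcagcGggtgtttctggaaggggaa
Reads that fall wholly inside the 129-base run cannot be told apart, and how the counting dealt with them is not given in the sources used here, so values of these 2 genes carry that uncertainty throughout.

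In all, 2243 of 5547 muscle barcodes and 8194 of 8481 lung barcodes had at least 200 genes and at most 10% mitochondrial UMIs (unique molecular identifiers, each standing for 1 captured RNA molecule). The muscle library lost 59.5% of its barcodes to the mitochondrial limit and the lung library 3.22%, and the kept barcodes held a median of 3106 and 2286 UMIs. Barcodes were assigned to cell types by marker genes, which placed 71.6% of muscle and 64.4% of lung barcodes in a gate. Despite the bead selection, the largest muscle gate was endothelial, with 844 barcodes and Ptprc (CD45) at 3.53 UMIs per 1000000. The libraries shared 64 barcode sequences, 24 of them kept in both libraries. Levels below are UMIs of a gene per 1000000 UMIs of all genes in a gate (CPM), with 95% Poisson intervals in brackets. With 1 library per tissue there is no test, and every interval covers counting error only, not differences between animals.

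Free RNA from lysed cells can enter any droplet, so each level was set beside the lung T cell gate, which should lack these receptors (569 barcodes, median 3237 UMIs). Per barcode, Fcgr3 gave 0.469 UMIs in the lung T gate, 0.389 in NK, 0.360 in B, 0.366 in epithelial and 0.326 in endothelial barcodes. The median depth of these gates ran from 2156 to 12590 UMIs. The values were not flat: the T interval (0.415 to 0.529) lay above that of B cells (0.318 to 0.406), and type 2 innate lymphoid cells at 0.696 (0.524 to 0.906) and fibroblasts at 0.654 (0.381 to 1.05) were higher. In the muscle library the same gene gave 0.0201 UMIs per endothelial and 0.00467 per fibroblast barcode, but 0.861 (0.668 to 1.09) in the muscle fibre gate. Lung levels near those of the T gate are therefore read as background, whose size per barcode differed between gates. The muscle endothelial and fibroblast gates held less than the lung T gate, and the muscle fibre gate held more. The parts of free RNA, doublets and misplaced barcodes in this background were not told apart.

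**Figure D1:**
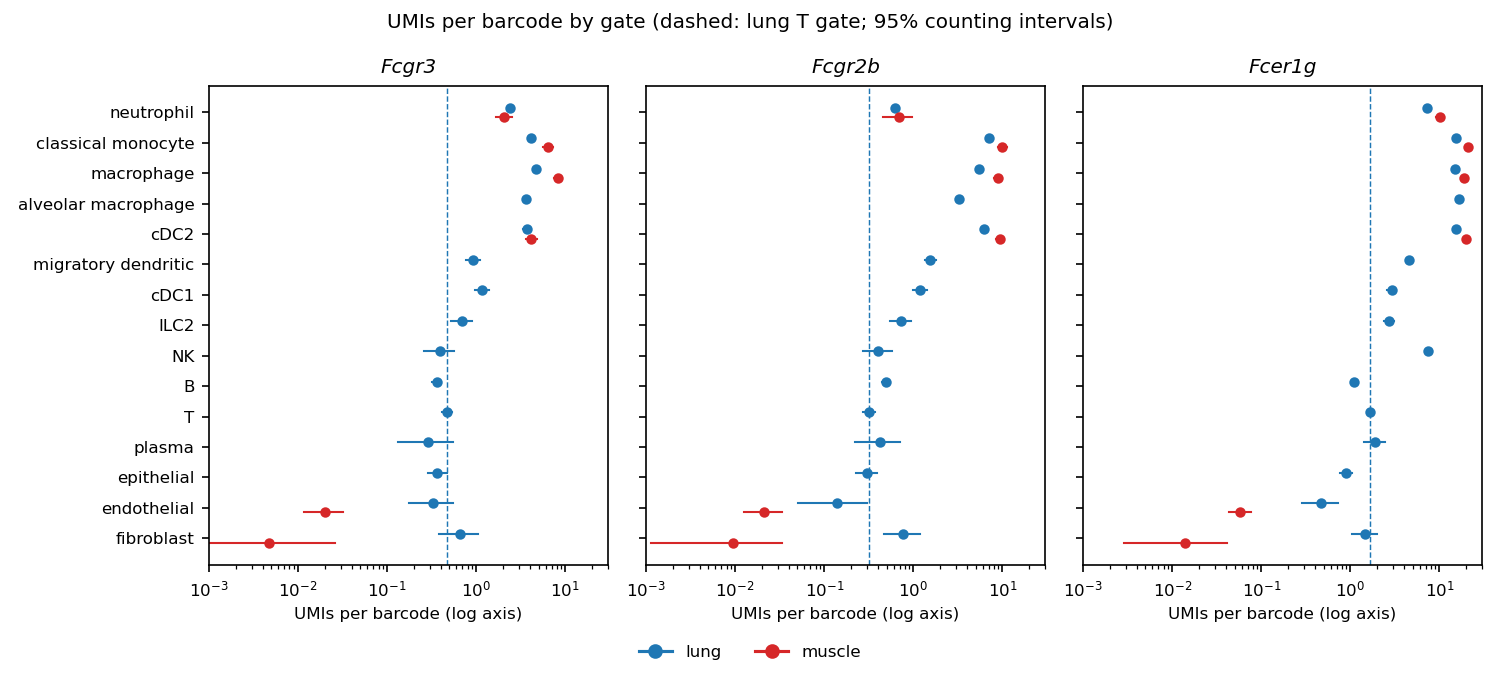
UMIs per barcode of Fcgr3, Fcgr2b and Fcer1g (log axes) by marker gate in the lung (blue) and muscle (red) libraries, with 95% Poisson intervals and the lung T gate as a dashed line. NK barcodes stand at the dashed line for Fcgr3 and well to its right for Fcer1g, and muscle endothelial barcodes stand far to its left.

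Fcgr3, which encodes the mouse low-affinity receptor CD16, gave most of the activating receptor UMIs in the myeloid gates. In lung it stood at 939 CPM (911 to 967) in neutrophils, 773 in macrophages, 619 in classical monocytes, 484 in alveolar macrophages and 375 in type 2 conventional dendritic cells (cDC2). The interval of each step in that order lay above 1, the smallest step being 1.21-fold (1.16 to 1.27) between neutrophils and macrophages. In muscle the order was different: macrophages led at 1077 CPM (971 to 1192), followed by monocytes at 575, neutrophils at 514 and cDC2 at 388. Muscle monocytes and neutrophils did not differ beyond counting error. The name cDC2 stands for a marker gate. Its own markers summed to 3430 CPM in muscle, beside 1340 for macrophage and 1316 for classical monocyte markers. In lung these sums were 5290, 2229 and 958 CPM. Lyz1 and Retnla were among the genes leading both the muscle cDC2 and the muscle monocyte gate. Whether cDC2 barcodes are dendritic cells, monocytes or macrophages by other criteria was not tested. In lung, 76.6% of neutrophils held an Fcgr3 UMI (median 2207 UMIs per barcode) against 20.9% of T cells (median 3237), and 57.1% against 7.32% after each barcode was thinned to 1000 UMIs.

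NK cells, for which CD16 is the textbook receptor, gave 122 CPM of Fcgr3 (80.9 to 176), 1.06 times the T gate level (0.693 to 1.57). Their 72 barcodes held 28 Fcgr3 UMIs, and Fcgr3 above background was not detectable in them at this depth. B cells at 139 CPM were 1.21 times the T gate (1.02 to 1.44), but lower than it per barcode.

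Fcgr1 encodes the high-affinity IgG receptor CD64, a macrophage marker in mice. It followed macrophages and monocytes: in lung 104 CPM (94.1 to 115) in macrophages and 91.1 (79.8 to 104) in classical monocytes, which did not differ beyond counting error. Alveolar macrophages at 33.9 CPM and cDC2 at 30.7 CPM came next and did not differ from each other. All other gates lay at or under 12.1 CPM, and neutrophils at 7.81 CPM equalled the T gate (1.01-fold, 0.560 to 1.89). In muscle, macrophages held 127 CPM (44 UMIs) and monocytes 35.3 CPM (13 UMIs), a 3.59-fold step (1.90 to 7.27). No Fcgr1 UMI was found in muscle neutrophils, where a count of 0 allows up to 16.96 CPM, or in muscle cDC2, where it allows 5.485 CPM.

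Fcgr4, the receptor through which mouse IgG2 antibodies act strongly, was a receptor of macrophages and neutrophils. Lung macrophages held 119 CPM (109 to 131), alveolar macrophages 92.4 and neutrophils 85.3, and the last pair did not differ beyond counting error. Lung monocytes stood at 40.5 CPM, and macrophages exceeded them 2.95-fold (2.37 to 3.68). The dendritic, B and NK gates lay between 4.35 and 11.3 CPM beside 9.87 CPM in T cells. In muscle, neutrophils gave 45.2 CPM and macrophages 23.0 CPM from 8 UMIs each, cDC2 10.97 CPM from 6 and monocytes 5.42 CPM from 2. None of these 4 differed from its neighbour beyond counting error.

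Fcer1g, the shared ITAM chain shown above, gave more UMIs than any other member in the myeloid gates of both libraries. Lung neutrophils held 2853 CPM (2805 to 2903), macrophages 2447, NK cells 2343, monocytes 2251 and alveolar macrophages 2189. Among the 4 levels after neutrophils, no step from one to the next exceeded counting error. The NK level rests on 539 UMIs and lies between macrophages (9530 UMIs) and monocytes (5732 UMIs). These steps therefore do not compare macrophages with monocytes directly and do not show them to be equal. Muscle neutrophils held 2527 CPM, macrophages 2414, monocytes 1858 and cDC2 1847. NK cells were high in the chain without detectable Fcgr3: 98.6% of NK barcodes held an Fcer1g UMI, at 5.73 times the T gate (5.15 to 6.38). The NK gate was narrow, since it held 26.0% of the 269 barcodes of the NK cluster, and with clusters in place of gates NK Fcer1g was 768 CPM. The chain also serves NK receptors other than CD16. There were 18.0 Fcer1g UMIs per activating receptor UMI in NK cells (12.4 to 26.9), compared with 2.77 in lung neutrophils, 2.46 in lung macrophages, 2.999 in lung monocytes and 3.73 in lung cDC2. The NK value divides by 30 activating UMIs, 28 of them Fcgr3 at the T gate level, so it is not a ratio of chain to detected receptor. B cells at 425 CPM, T cells at 409 and type 1 dendritic cells (cDC1) at 377 did not differ from their neighbours in that order.

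Fcgr2b, the inhibitory receptor whose ITIM is shown above, was led by monocytes in lung and by macrophages in muscle. Lung classical monocytes held 1047 CPM (1007 to 1087), macrophages 897, cDC2 637, alveolar macrophages 428, neutrophils 242 and migratory dendritic cells 234. Monocytes exceeded neutrophils 4.32-fold (4.02 to 4.63), and neutrophils and migratory dendritic cells did not differ. Muscle macrophages held 1167 CPM (1056 to 1286), monocytes 895, cDC2 868 and neutrophils 170. On B cells, where Fcgr2b is the only classical IgG receptor, lung barcodes gave 192 CPM (173 to 213), 2.48 times the T gate level (2.07 to 2.98), and 29.8% of them held a UMI (median depth 2156) against 14.1% of T cells (median 3237). NK cells gave 126 CPM, 1.62 times the T gate (1.06 to 2.41), from 29 UMIs. Per barcode Fcgr2b was 0.499 UMIs (0.450 to 0.553) in B, 0.403 (0.270 to 0.578) in NK and 0.318 (0.273 to 0.368) in T cells, so the B interval lay above that of T cells and the NK interval held the T value.

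**Figure D2:**
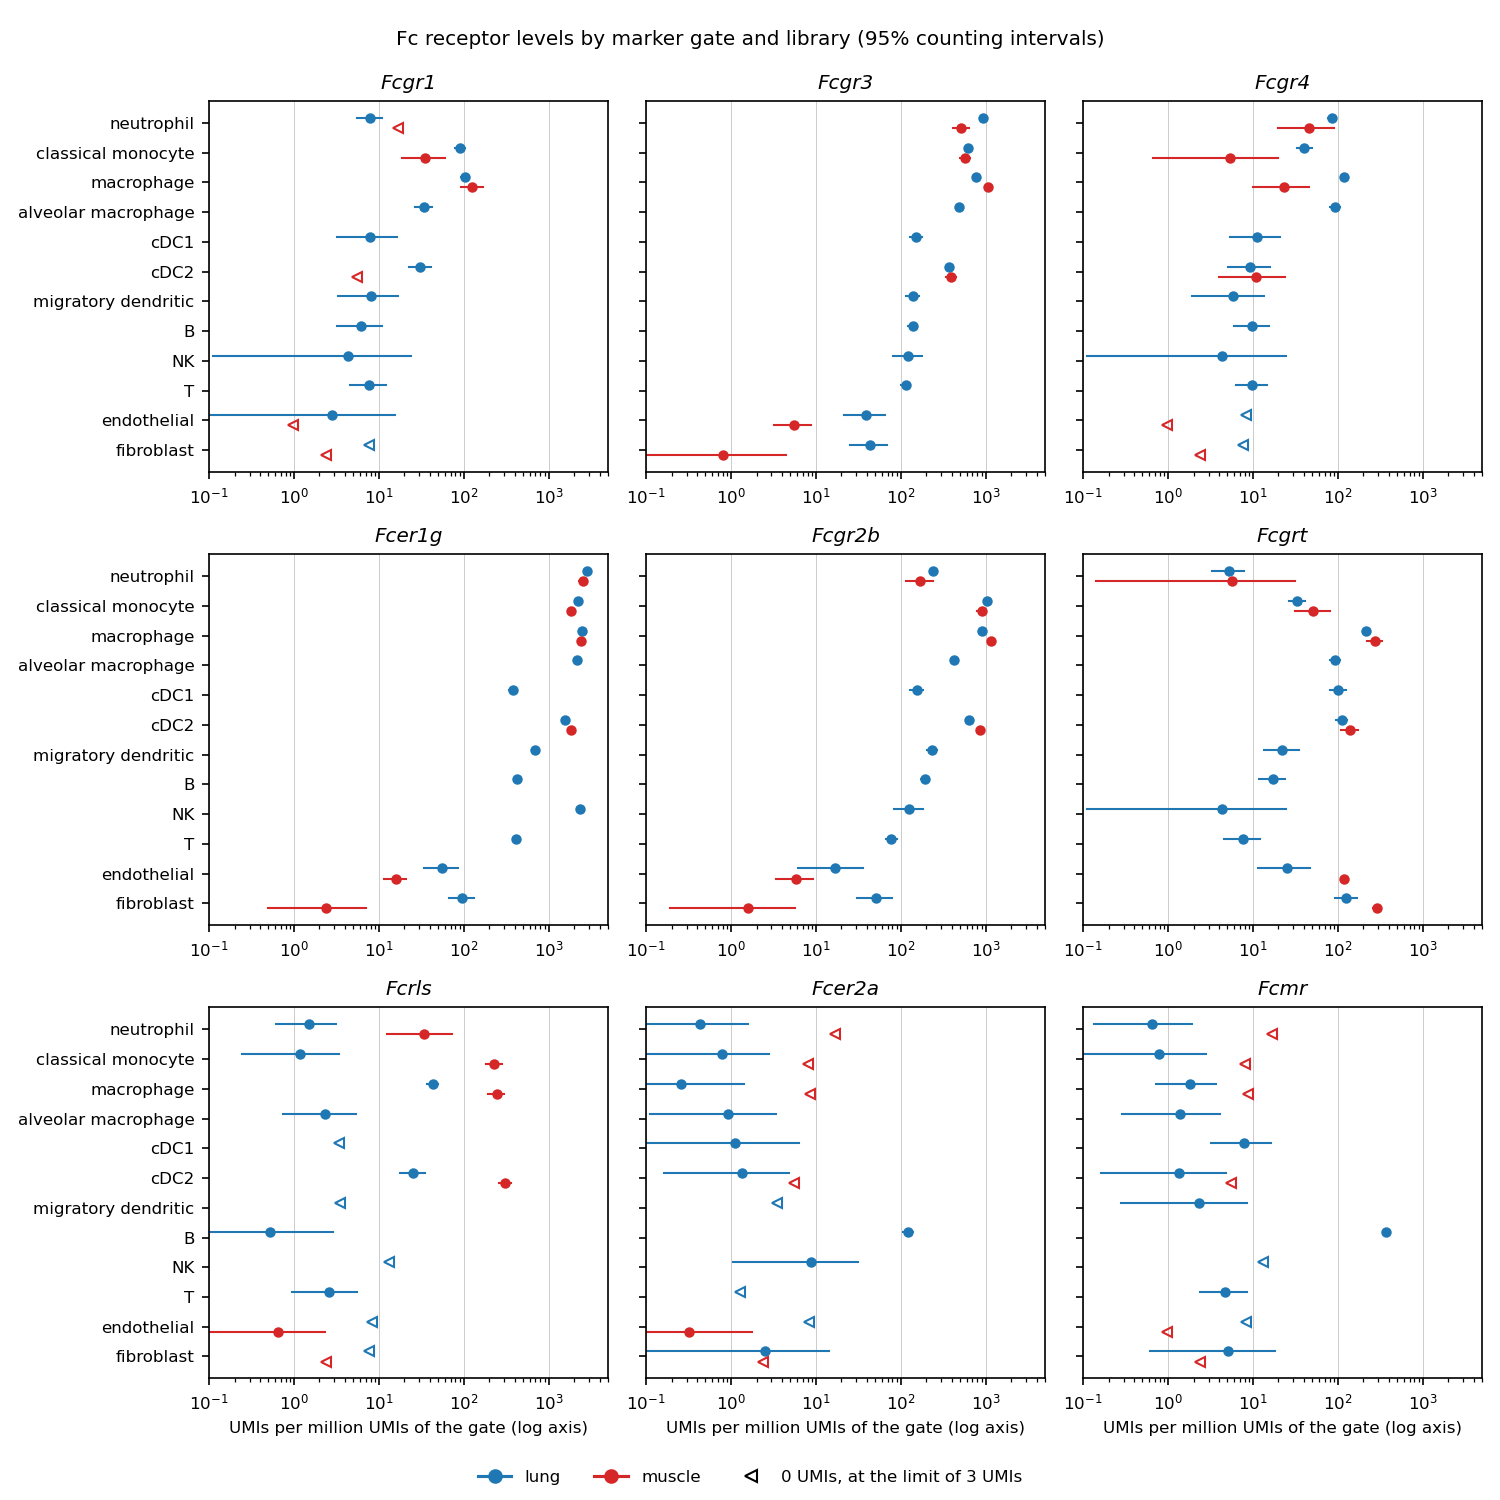
CPM (log axes) of the 9 genes in marker gates of the lung (blue) and muscle (red) libraries, with 95% Poisson intervals and open triangles at the limit a count of 0 allows. Fcgr3, Fcgr2b and Fcer1g are high across myeloid gates, Fcgr1 and Fcgr4 in fewer of them, Fcer2a and Fcmr in lung B cells, and Fcrls is higher in muscle than in lung myeloid gates.

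The activating to inhibitory balance was taken as the sum of Fcgr1, Fcgr3 and Fcgr4 UMIs per Fcgr2b UMI in the same cells. Since capture can differ between genes, the ratio is compared between gates and is not read against 1 as a point of equal protein. Lung neutrophils stood at the activating end with 4.26 (3.99 to 4.55), from 4755 activating and 1117 inhibitory UMIs. Alveolar macrophages followed at 1.43 (1.31 to 1.55) and macrophages at 1.11 (1.06 to 1.16). Classical monocytes at 0.717 (0.676 to 0.761), cDC2 at 0.651 (0.587 to 0.721) and migratory dendritic cells at 0.652 (0.519 to 0.816) held more Fcgr2b than activating UMIs, and the counting intervals of their differences held 1. The migratory value moved most with the processing, to a log2 ratio of -2.66 with the lung T gate level subtracted. Neutrophils exceeded monocytes by a ratio of ratios of 5.94 (5.43 to 6.49) and macrophages by 3.83 (3.53 to 4.15), and macrophages exceeded monocytes by 1.55 (1.44 to 1.67).

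The muscle library gave the same order. Its neutrophils stood at 3.30 (2.17 to 5.14), macrophages at 1.05 (0.916 to 1.21), monocytes at 0.688 (0.578 to 0.817) and cDC2 at 0.459 (0.389 to 0.540). Muscle over lung, the ratio of ratios was 0.775 (0.508 to 1.22) in neutrophils, 0.959 (0.798 to 1.15) in monocytes and 0.946 (0.818 to 1.10) in macrophages, with intervals that hold 1. In cDC2 it was 0.705 (0.580 to 0.856), lower in muscle, but this gap depends on the processing. With the lung T gate level subtracted the lung cDC2 ratio was 0.506, inside the muscle interval, and clusters in place of gates gave 0.573 in muscle and 0.676 in lung.

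The lymphoid and endothelial ratios rest on fewer UMIs and come from levels nearer to the lung T gate background, whose own ratio was 1.70 (1.41 to 2.06). B cells gave 0.805 (0.689 to 0.941), below the T cell value, and 0.454 with doublets removed. The cDC1 gate gave 1.10 (0.869 to 1.40). NK cells gave 1.03 (0.600 to 1.79) from 30 and 29 UMIs. Lung endothelial cells gave 2.50 (0.917 to 7.86) from 15 and 6 UMIs, and muscle endothelial cells 0.944 (0.457 to 1.94) from 17 and 18 UMIs in 844 barcodes, so no balance could be set for endothelium at this depth. With the T gate level in CPM subtracted from each lung gate, the ratio was 5.46 in neutrophils, 0.638 in monocytes, 1.06 in macrophages, 0.506 in cDC2 and 0.212 in B cells. With its UMIs per barcode subtracted, which was added after seeing the data, it was 6.97, 0.671, 1.07 and 0.594 in the first 4, and B cells gave no value.

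**Figure D3:**
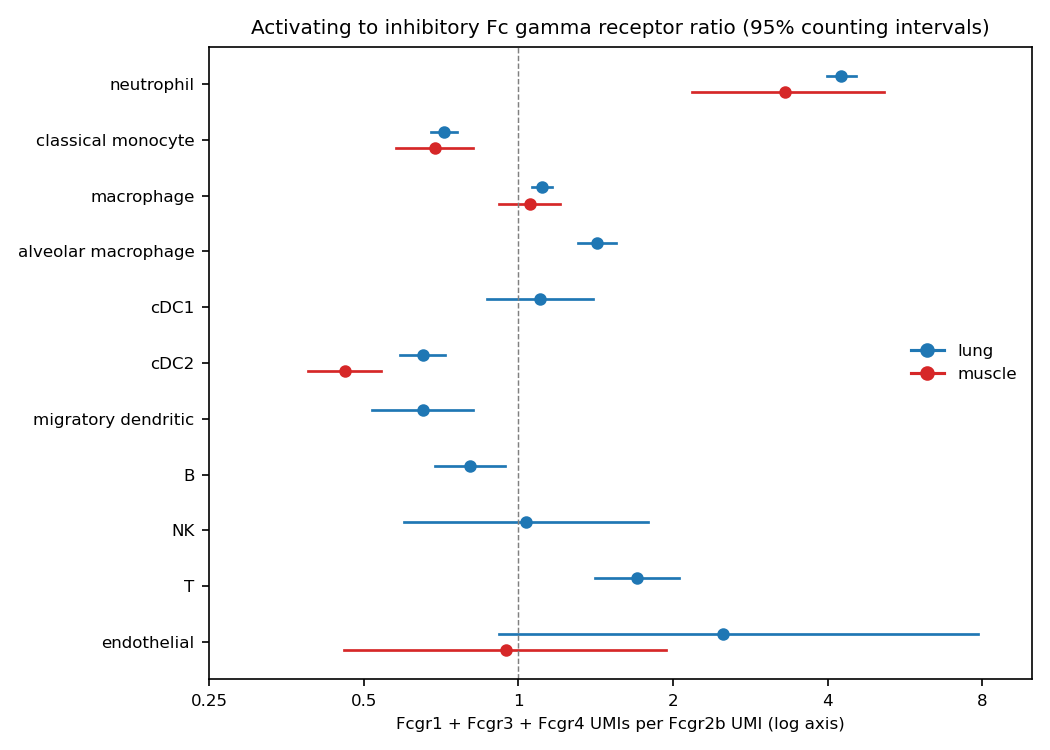
Fcgr1, Fcgr3 and Fcgr4 UMIs per Fcgr2b UMI (log axis) by marker gate in the lung (blue) and muscle (red) libraries, with 95% intervals from the binomial split of the counts. Neutrophils of both libraries lie to the right of the other myeloid gates, and monocytes and cDC2 lie left of 1.

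Fcgr3 carried most of the activating side in each of these gates: 91.0% of activating UMIs in lung neutrophils, 82.5% in monocytes, 77.6% in macrophages and 79.3% in alveolar macrophages, with 91.9% in muscle neutrophils. Fcgr1 made up 12.1% in lung monocytes and 10.4% in lung macrophages but 0.757% in lung neutrophils. Fcgr4 made up 15.1% in alveolar macrophages, 12.0% in lung macrophages and 8.27% in lung neutrophils, but 1.88% in muscle macrophages. Because Fcgr3 is the gene with the near-copy stretch in Fcgr2b, the ratio was also taken without it. Fcgr1 and Fcgr4 UMIs per Fcgr2b UMI were 0.384 (0.343 to 0.430) in lung neutrophils, 0.249 (0.231 to 0.268) in macrophages, 0.126 (0.112 to 0.141) in monocytes and 0.0629 (0.0476 to 0.0817) in cDC2, which keeps the order of these 4 gates. The lung T gate gave 0.227 (0.157 to 0.319). Fcgr2b, the other gene with the shared run, stays in this ratio. The kept order therefore cannot settle how misassigned reads affect the balance.

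Single barcodes showed the same contrast. After thinning to 1000 UMIs, 47.8% of 1640 lung neutrophils held an activating but no Fcgr2b UMI, 6.77% held Fcgr2b alone and 12.9% held both. Among 366 thinned lung monocytes the shares were 17.5%, 25.1% and 32.8%, and among 51 muscle cDC2 they were 5.88%, 41.2% and 21.6%. Without thinning, 31.6% of lung neutrophils, 84.9% of lung monocytes, 81.8% of muscle monocytes and 91.1% of muscle macrophages held both kinds of UMI. The median depths of these 4 gates were 2207, 6107, 9162 and 7984 UMIs, so the unthinned shares are not compared between them.

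**Figure D4:**
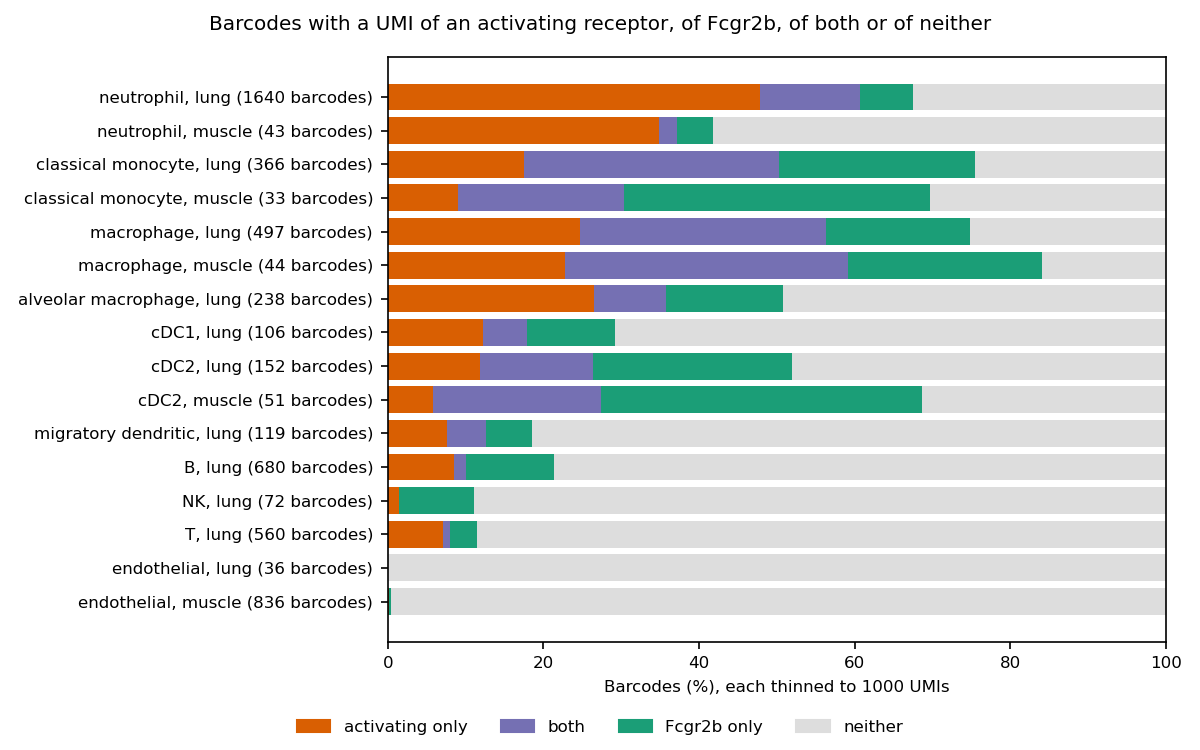
Percent of barcodes, each thinned to 1000 UMIs, with UMIs of an activating receptor only, of both kinds, of Fcgr2b only or of neither, by gate and library. The activating-only share is 47.8% in lung neutrophils, and the Fcgr2b-only share is 41.2% in muscle cDC2.

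Within gates of the lung library, barcodes were also split by whether they held a UMI of a state gene, 3 genes in neutrophils, 1 in monocytes and 2 in macrophages. Neutrophils with Siglecf, a lectin found on a tumour-associated neutrophil state, had a ratio of 5.02 (4.38 to 5.77) in 391 barcodes against 4.03 (3.74 to 4.35) in the other 1404. Fcgr2b was 199 CPM (175 to 225) with and 259 (242 to 277) without Siglecf, Fcgr4 64.8 (51.5 to 80.4) and 93.1 (83.0 to 104), and Fcgr3 923 and 945. The other 2 neutrophil splits had overlapping intervals: 4.44 (4.09 to 4.83) with and 3.95 (3.55 to 4.41) without the chemokine gene Ccl3, and 4.08 (3.63 to 4.59) with and 4.34 (4.01 to 4.71) without Retnlg. Retnlg is also a marker of the neutrophil gate, so its split is not independent of the gating. Monocytes with Arg1, the arginase of suppressive myeloid cells, had a ratio of 0.777 (0.722 to 0.837) in 211 barcodes against 0.622 (0.563 to 0.687) in 167, with Fcgr3 at 671 CPM (631 to 713) and 535 (490 to 583). Barcodes with a UMI of the state gene were deeper (median 2791 against 2054 UMIs for Siglecf and 6786 against 5326 for Arg1), and the part of depth in these differences was not tested.

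Fcgrt, the neonatal receptor, was placed differently from the IgG receptors of the surface. In lung it was highest in macrophages at 215 CPM (200 to 230), followed by cDC2 at 112, cDC1 at 102 and alveolar macrophages at 92.9, and the last 3 did not differ from their neighbours. Macrophages exceeded classical monocytes 6.51-fold (5.19 to 8.24) and neutrophils 41.2-fold (27.5 to 64.7). Neutrophils at 5.21 CPM and NK cells at 4.35 CPM were no higher than T cells at 7.72 CPM. In muscle, macrophages held 274 CPM (221 to 335), cDC2 139, endothelial cells 119.5 (108 to 132) and monocytes 51.5, and cDC2 and endothelial cells did not differ. With 3094 UMIs at the median, 29.6% of muscle endothelial barcodes held an Fcgrt UMI. B2m, its partner chain, stood at 1674 CPM in lung endothelial cells and 1932 CPM in lung macrophages. In muscle B2m was lower in both gates, without a call by the size rule given below. It was 965 CPM in endothelial cells, a log2 ratio of muscle over lung of -0.80 (-0.92 to -0.67). In muscle macrophages it was 1564 CPM, a log2 ratio of -0.31 (-0.43 to -0.18).

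Lung macrophages were not uniform in Fcgrt. The 99 barcodes with a UMI of Folr2, a marker of resident tissue macrophages, held 547 CPM (494 to 605), against 142 (129 to 155) in the other 539. They also held more Fcrls, at 101 CPM (79.0 to 128) against 30.4 (24.6 to 37.1), and their activating to inhibitory ratio was 0.875 (0.788 to 0.973) against 1.18 (1.12 to 1.24). Macrophages with Mmp12, a secreted elastase, went the other way: Fcgrt was 143 CPM (128 to 158) with and 344 (314 to 376) without it, and the ratio was 1.22 (1.15 to 1.29) and 0.953 (0.883 to 1.03). Median depths were 6388 and 3721 UMIs for the Folr2 split and 7440 and 2580 for the Mmp12 split. Folr2 is also a marker of the macrophage gate, so its split is not independent of the gating.

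Fcer2a and Fcmr marked B cells. Lung B cells held 122 CPM of Fcer2a (107 to 138) and 369 CPM of Fcmr (342 to 397), and 22.4% and 49.4% of B barcodes held a UMI of each. No Fcer2a UMI was found in lung T cells, which puts B cells at least 94.5-fold higher, with the floor set at 3 UMIs in the T gate. Fcmr was 78.2-fold higher in B than in T cells (43.4 to 157). The muscle library had 4 B barcodes, too few to give a level.

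Muscle and lung were compared within the 5 gates that had at least 20 barcodes in each library. The size rule for a call asked for a CPM ratio of 4 or more in either direction, an interval lying wholly beyond 2-fold, and 30 or more UMIs on the higher side. Of 5 members tested in neutrophils, 0 were called, beside 2.05% of all genes tested there (0.545% higher and 1.51% lower in muscle). Among the 5, Fcgr1 (0 muscle and 36 lung UMIs) could not have been called, because the floor fixed its log2 ratio at 0. The floor acts in the same way on any gene with 0 UMIs in 1 library, so the shares over all genes include such genes. In classical monocytes 1 of 7 was higher and 1 lower in muscle, beside 1.86% of all genes (0.416% and 1.44%). In macrophages it was again 1 higher and 1 lower of 7, beside 1.98% (0.37% and 1.61%). In cDC2 it was 1 higher and 1 lower of 6, beside 4.86% (0.922% and 3.94%). In endothelial cells 1 of 2 was higher and 0 lower, beside 4.1% (2.68% and 1.42%). The median log2 ratio of tested members was -0.52 in neutrophils, -0.23 in monocytes, 0.35 in macrophages, 0.29 in cDC2 and 0.22 in endothelial cells, beside -0.25, -0.05, -0.05, -0.31 and -0.01 over all genes tested. The neutrophil median of members includes the fixed 0 of Fcgr1.

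Fcrls was the member that was higher in muscle in each of the 3 gates. Monocytes held 228 CPM in muscle (84 UMIs) and 1.18 in lung (3 UMIs), a log2 ratio of 7.60 (5.999 to 9.90), which fell to 4.31 with clusters in place of gates. Macrophages held 245 CPM in muscle (85 UMIs) and 43.1 in lung (168 UMIs), a log2 ratio of 2.50 (2.11 to 2.89). In cDC2 the levels were 307 and 25.4 CPM and the log2 ratio 3.597 (3.08 to 4.14). In muscle 76.5% of cDC2, 57.8% of macrophages and 42.4% of monocytes held an Fcrls UMI, and the muscle endothelial gate gave 0.643 CPM. Markers of other myeloid types moved with it in part. The 11 macrophage markers summed to 4682 CPM in muscle monocytes and to 3071 CPM in lung monocytes, with Pf4 and Folr2 at 0 in muscle. In cDC2 they summed to 1340.2 CPM for muscle and 2229 CPM for lung, with Ms4a7 and Folr2 at 0 in muscle. In macrophages their own markers summed to 41286 and 24455 CPM. Lyz1, a lysozyme among the genes leading both muscle gates, was 2232 CPM in muscle and 4.71 in lung monocytes, and 841 and 0.668 CPM in cDC2. Their part in the Fcrls difference was not tested.

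Fcgr4 went the other way. In macrophages it was 23.0 CPM from 8 muscle UMIs and 119 CPM from 464 lung UMIs, a log2 ratio of -2.37 (-3.59 to -1.38). In monocytes it was 5.42 CPM from 2 UMIs and 40.5 CPM from 103 UMIs, a log2 ratio of -2.90 (-5.96 to -1.01). The monocyte call was lost with at least 500 genes, where the log2 ratio was -2.86 with an interval ending at -0.97. It was also lost with at most 5% mitochondrial UMIs or a stricter gate. Muscle had 0 UMIs in these 2 settings, and the floor gave log2 ratios of -1.89 and -1.86. The macrophage call was lost with clusters in place of gates, at -1.75 (-2.72 to -0.93). In neutrophils Fcgr4 was 45.2 and 85.3 CPM, with an interval of the log2 ratio from -2.14 to 0.08. Fcgr1 in cDC2 had 0 UMIs in muscle and 46 in lung. With that 0 set to the floor of 3 UMIs it was 5.60-fold lower in muscle, and the interval of the log2 ratio ended at -2.13.

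Fcgrt in endothelial cells was 119.5 CPM in muscle (372 UMIs) against 25.03 CPM for lung (9 UMIs), a log2 ratio of 2.26 (1.32 to 3.40), which lost its call with clusters in place of gates, at 1.90. The lung endothelial gate had 43 barcodes, led by Col4a1, Calcrl and Plvap, and the muscle gate was led by Fabp4, Aqp1 and Gpihbp1.

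Fcgr1 in monocytes was not called but was lower in muscle, at 35.3 CPM against 91.1 CPM in lung, a log2 ratio of -1.37 (-2.30 to -0.57). Fcer1g, Fcgr2b and Fcgr3 differed less between tissues in the myeloid gates. Fcer1g was within a log2 ratio of -0.28 to 0.25 in the 4 myeloid gates. Fcgr2b was between -0.52 and 0.45, and Fcgr3 between -0.87 and 0.48, with Fcgr3 lower in muscle neutrophils at -0.87 (-1.18 to -0.57) and higher in muscle macrophages at 0.48 (0.32 to 0.63). Muscle neutrophils were also led by Ngp, Camp and Ltf, genes of immature neutrophils, and held S100a8 at 54740.2 CPM beside 17382 CPM in lung.

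**Figure D5:**
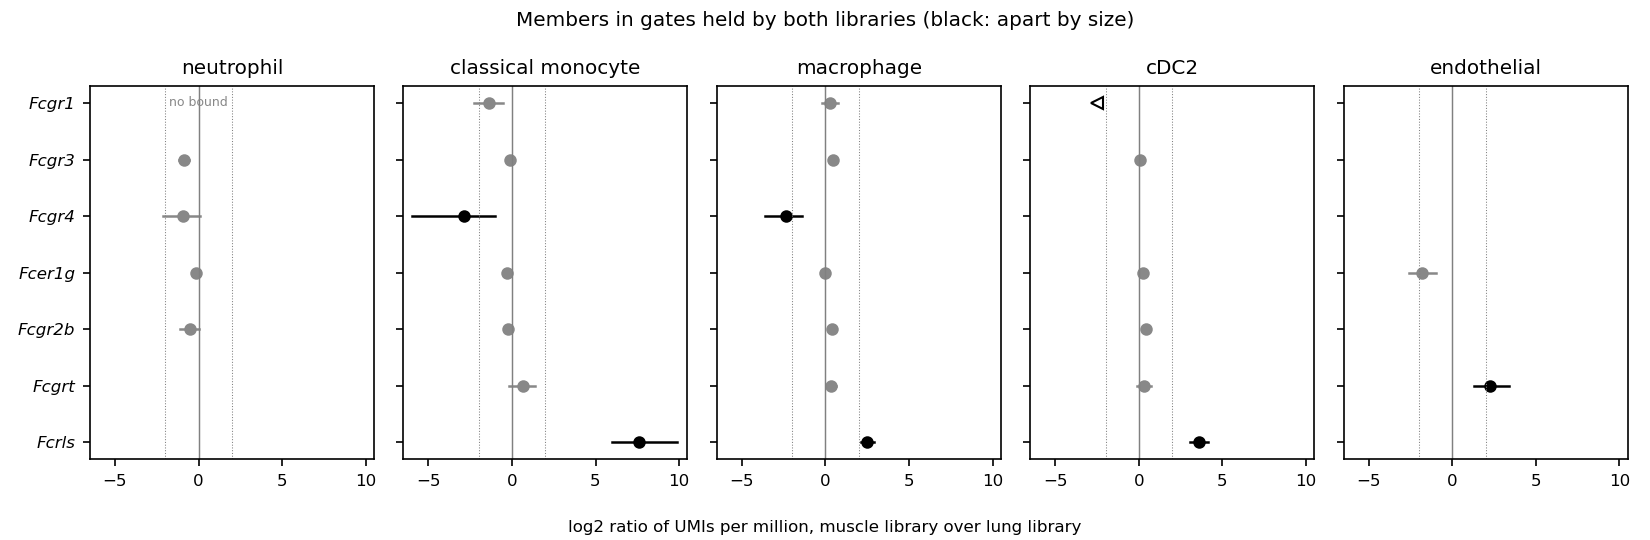
Log2 ratio of CPM, muscle over lung, for tested members in the 5 gates held by both libraries, with 95% intervals. Black marks a call apart by size, the open triangle the floor value for Fcgr1 in cDC2, and dotted lines a ratio of 4 either way. Fcrls lies right of the upper line in monocytes, macrophages and cDC2, and Fcgr4 left of the lower line in monocytes and macrophages.

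Other genes of Fc receptor signalling were taken from a list of 26, all found in the files. Of them 15 were tested in neutrophils, 16 in monocytes, 17 each in macrophages and cDC2 and 8 in endothelial cells. The 1 gene called was Lcp2, an adaptor downstream of Syk, lower in the muscle endothelial gate (3 against 38 UMIs, log2 ratio -6.78, -9.12 to -5.12). Over all genes tested in that gate 4.1% were called, 1.42% lower in muscle, and the shares of the other gates are given above. The lung endothelial gate had 43 barcodes and held Ptprc at 19.5 CPM, beside 3.53 CPM in muscle. The part of background in the Lcp2 difference was not tested. The median log2 ratio of the tested genes was -0.05, -0.28, 0.04, -0.48 and -0.55 in these gates, beside the medians over all genes given above. The 3 highest in lung macrophages were Tyrobp, an ITAM adaptor related to Fcer1g, at 3076 CPM, B2m at 1932 and the kinase Lyn at 416. Syk, the kinase recruited by ITAMs, was 1068 CPM in lung neutrophils, 895 in B cells and 284 in macrophages. Inpp5d, the phosphatase SHIP1 that acts behind the Fcgr2b ITIM, was 728 CPM in lung B cells, 471 in neutrophils and 244 in macrophages. The high-affinity IgE receptor chain Fcer1a had no UMI in the lung gates given here.

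Across the 24 gate and library sums, Fcgr3 and Fcer1g ran most closely together among member pairs (Pearson r = 0.96 of log2(CPM + 10)), with 0.95 for Fcer2a and Fcmr and 0.88 for Fcgr2b and Fcgr3. These sums share libraries and background and are not independent. Among 8554 other genes the patterns most like Fcer1g were those of Tyrobp, Ccl6 and Laptm5 (r = 0.995, 0.97 and 0.96). For Fcgr3 they were Ccl6, Cd300c2 and Tyrobp (0.96 each), and for Fcgr2b Lyz2, Ccl9 and Cfp (0.95, 0.91 and 0.91). Fcgr1 was closest to Msr1, C3ar1 and Ms4a4a (0.93, 0.93 and 0.90), and Fcgr4 to Atp6v0c, Plin2 and Slc15a3 (0.87, 0.86 and 0.85). Fcgrt was closest to Cmtm3, Rassf8 and Nfix (0.85, 0.84 and 0.82).

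The 3 activating receptor genes also share a short word in the 250 bases before their start sites, shown here because they are the myeloid activating set (RefSeq, GRCm38.p6, transcribed strand 5′ to 3′). GAGGAA, the core bound by the myeloid factor PU.1, or its reverse complement TTCCTC is in capitals. Fcgr1 lies at chr3:96293970-96294219 on the minus strand, Fcgr3 at chr1:171059404-171059653 on the minus strand and Fcgr4 at chr1:171018676-171018925 on the plus strand.
Fcgr1: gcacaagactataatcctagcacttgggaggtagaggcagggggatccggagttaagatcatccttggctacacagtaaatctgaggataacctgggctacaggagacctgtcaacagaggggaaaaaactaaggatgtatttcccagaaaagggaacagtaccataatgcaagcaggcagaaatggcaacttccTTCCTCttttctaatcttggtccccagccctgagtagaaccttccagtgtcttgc
Fcgr3: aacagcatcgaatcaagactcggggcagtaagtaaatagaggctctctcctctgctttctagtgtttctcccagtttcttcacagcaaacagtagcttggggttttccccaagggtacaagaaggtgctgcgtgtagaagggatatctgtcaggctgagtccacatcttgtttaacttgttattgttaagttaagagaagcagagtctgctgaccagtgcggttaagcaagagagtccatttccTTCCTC
Fcgr4: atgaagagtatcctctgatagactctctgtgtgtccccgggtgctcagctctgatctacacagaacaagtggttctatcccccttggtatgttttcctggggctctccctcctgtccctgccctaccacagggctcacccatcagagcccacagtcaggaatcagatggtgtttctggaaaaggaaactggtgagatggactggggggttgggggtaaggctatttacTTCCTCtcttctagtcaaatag
On either strand the word was found in this window for 5 of 9 members (Fcgr1, Fcgr3, Fcgr4, Fcmr and Fcrls) and for 25.9% of 27025 genes. It was not found for Fcer1g, Fcgr2b, Fcgrt or Fcer2a. Fcer1g and Fcgr2b were high in the myeloid gates and Fcmr marked B cells, so the word did not follow myeloid levels among the members. The longer AGAGGAAGT, which contains it, was found for Fcgr4 alone among members and for 0.94% of genes. Such a match is a description of the letters and not a binding site.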

How the data were processed

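Single-cell 5' libraries (10x Genomics) of CD45+ cells from muscle and lung were processed with Cell Ranger 7.0.1 on GRCm39, per the submitters' processing notes. The deposited values are raw UMI counts per gene and barcode. Whether doublets or free RNA were removed by the authors is not given in the sources used here.

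Barcodes with at least 200 genes and at most 10% mitochondrial UMIs were kept. Each was gated by the mean z-score of log(counts per 10000 + 1) over the markers of a cell type, with at least 3 markers present and a margin of 0.25 over the next type. Counts were summed per gate and library (Python 3.11.15, numpy 2.4.6, scipy 1.17.1, pandas 2.3.3). Gates with under 20 barcodes were not compared. Levels have exact Poisson, shares exact Clopper-Pearson and ratios exact conditional binomial intervals, at 95%. A lone count of 0 was set to a floor of 3 UMIs per gate and library. No doublet caller was used in the main values. The size call was tried on simulated counts with counting error alone, which cannot show how it behaves under differences between animals, gating or background. Named genes are the 9 members, listed pathway genes called in a compared gate, the 3 highest of that list in lung macrophages, and the 3 genes most like each of 6 members. A few further genes (Syk, Inpp5d, Fcer1a, the state genes and those leading a gate) were named after their values were seen. Members, markers and lists were chosen with earlier results of these data known. Alternatives used scanpy 1.11.5, leidenalg 0.10.2 and edgeR 4.0.16. The ITAM and ITIM patterns were searched in the translated coding sequences, and no other analysis of protein sequence was made.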

Additional observations from a re-analysis of the deposited data

Results flagged for a closer look

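Barcodes over the mitochondrial limit enter no comparison above, and member transcripts were found in them above the limit that a count of 0 allows. In muscle 3301 such barcodes gave Fcer1g at 46.0 CPM (40.1 to 52.5) and Fcgrt at 42.6 CPM (36.9 to 48.9), with Ptprc at 27.6 CPM. In lung 273 such barcodes gave Fcer1g at 308 CPM (265 to 355) and Fcgrt at 14.8 CPM (6.77 to 28.1), with Ptprc at 143 CPM. A count of 0 would have allowed up to 0.636 CPM in muscle and 4.94 CPM in lung. There are no control samples to set these values against.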

How the results depend on the processing

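No paired analysis was possible because each tissue has 1 library. Of 90 alternative values of the activating to inhibitory ratio (log2) 73 stayed within the counting interval. No ratio whose interval excludes 1 changed direction, but 3 whose interval holds 1 changed sign: NK ran from -2.76 to 0.40, lung cDC1 from -1.002 to 0.61 and muscle endothelial cells from -0.47 to 0.42. Migratory dendritic cells ran from -2.66 to -0.53. Of 90 alternative counts of members apart 81 were unchanged within 1.5 times. With the lung T gate CPM subtracted the log2 ratio was 2.45 in lung neutrophils, -0.65 in monocytes, 0.0778 in macrophages, -0.98 in cDC2 and -2.24 in B cells. With its UMIs per barcode subtracted, an alternative chosen after seeing the data, it was 2.80 in lung neutrophils and -0.58 in monocytes. With doublets removed (556 lung and 100 muscle barcodes) it was -1.14 in B cells. With 43 clusters named by markers, which gave 86.1% of gated barcodes the same name, it was 0.0621 in lung macrophages and -0.80 in muscle cDC2. The clusters gave no member lower in muscle macrophages (0), 0 higher and 1 lower (Fcer1g) in muscle endothelial cells, and no separate cDC1. The lower count in muscle monocytes was 2 with a call at 2-fold (Fcgr1 and Fcgr4) and 0 with a stricter gate margin, at most 5% mitochondrial UMIs or at least 500 genes. With no minimum count, 1 member was higher in muscle neutrophils (Fcrls) and 1 lower in muscle endothelial cells (Fcgr3). The cause of these changes was not tested. Fcrls stayed called in monocytes, macrophages and cDC2 under all 9 alternatives, with log2 ratios from 4.31 to 8.995, from 2.13 to 2.52 and from 3.54 to 5.02. TMM factors shifted muscle over lung by -0.11 in neutrophils, -0.16 in monocytes, -0.18 in macrophages, 0.18 in cDC2 and 0.28 in endothelial cells and changed no call. Depth limits NK, cDC1 and endothelial values, and the 33 to 51 barcodes of the muscle myeloid gates limit every tissue comparison.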

Other observations

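Fcgrt was also found outside the blood-derived cells. Muscle fibroblasts held 291 CPM (262 to 322) from 365 UMIs in 214 barcodes, pericytes or smooth muscle cells 95.6 (73.5 to 122) and Schwann cells 118 (74.0 to 179). Lung fibroblasts held 127 CPM (93.9 to 167) in 26 barcodes. In the same muscle fibroblasts Fcgr3 had 1 UMI and Fcgr2b 2.

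Schwann barcodes of muscle gave Fcgr2b at 123 CPM (78.3 to 185), from 23 UMIs in 6 of 57 barcodes, while Fcgr1, Fcgr3, Fcgr4, Fcer1g and Ptprc had 0 UMIs there, which allows up to 16.1 CPM each. The muscle endothelial gate gave Fcgr2b at 5.78 CPM. In the muscle fibre gate 86 Fcgr2b UMIs came from 14 of 79 barcodes and 294 Fcer1g UMIs from 13, with Ptprc at 147 CPM.

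Among B cell Fc receptor-like genes, lung B cells held Fcrla at 199.6 CPM, Fcrl1 at 189 and Fcrl5 at 79.5, and lung epithelial cells held Pigr, the polymeric immunoglobulin receptor, at 230.5 CPM. Ungated barcodes had activating to inhibitory ratios of 1.26 (1.202 to 1.31) in lung and 0.705 (0.608 to 0.817) in muscle.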
